A study of Homo sapiens with 8 samples.

Results

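TNFSF13, TNFSF13B, TNFRSF12A and FURIN encode the ligand APRIL, its relative BAFF, the TWEAK receptor Fn14 and the protease furin. They were taken by symbol from a table of RNA values in MonoMac 6 cells, an established human line from an acute monocytic leukaemia. All 4 have a row among the 11530 genes of the table, and all 4 passed the floor on low values that kept 11257 genes for testing. The floor asked for a value of at least 1 on the linear scale, 0 on the log2 scale, in at least 4 libraries. The deposited values carry a constant of their own for each gene, so this floor does not sort genes by abundance. Of 8 RNA libraries, 4 came from cells given recombinant human APRIL at 100 ng/mL for 24 h and 4 from control cells without it. Both groups were in RPMI with baseline cytokines that the labels do not name. The growth medium held 10% serum, the medium with APRIL is labelled free of serum, and the serum content of the control medium during those 24 h is not stated, so APRIL and a change of serum cannot be told apart. The labels do not say whether the libraries of a group came from separate cultures, so each p-value below measures the spread between libraries, which may be technical. The question addressed is whether cells exposed to APRIL changed the RNA of the ligand itself, of its closest relative, of the enzyme that processes both, and of the receptor of the neighbouring ligand TWEAK.

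APRIL and BAFF are trimeric ligands of the tumour necrosis factor (TNF) family, made by monocytes and other myeloid cells and best known for the survival of B cells and plasma cells. Both are made as membrane proteins and released by a furin-type protease, APRIL already inside the Golgi. They share the receptors TACI (TNFRSF13B) and BCMA (TNFRSF17), BAFF also binds the BAFF receptor (TNFRSF13C), and APRIL binds heparan sulfate proteoglycans such as syndecans and glypicans. TWEAK (TNFSF12) is encoded immediately upstream of TNFSF13, and read-through between both genes makes a fusion named TWE-PRIL. Fn14, the product of TNFRSF12A, is a short receptor that signals through TRAF adaptors, and the scavenger receptor CD163 of monocytes also binds TWEAK. Furin is a calcium-dependent convertase of the trans-Golgi network that cuts precursors after paired basic residues, its own propeptide included.

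The table analysed here holds no row for TNFRSF13B, TNFRSF17 or TNFRSF13C, the 3 signalling receptors of APRIL and BAFF, nor for TNFSF12 or the read-through TNFSF12-TNFSF13. No level of these 5 genes is given here. Of the receptor side the table holds TNFRSF12A and CD163, and of 6 proteoglycans searched it holds 4, without SDC1 and SDC3.

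The link between furin and both ligands can be read in their coding sequences. Each line gives 42 bases of the coding sequence, 5′ to 3′, from the transcripts of GENCODE 29. The capitals mark 4 codons for arginine, any residue, lysine or arginine, and arginine, the only furin-type motif searched for here.
TNFSF13: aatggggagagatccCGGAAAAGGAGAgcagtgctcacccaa
TNFSF13B: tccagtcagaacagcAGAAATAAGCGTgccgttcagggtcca
FURIN: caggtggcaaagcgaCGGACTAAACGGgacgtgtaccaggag
TNFRSF12A: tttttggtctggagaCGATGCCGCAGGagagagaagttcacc
Each of the 4 coding sequences holds the motif at 1 place. The capitals begin at codon 101 of 250 in TNFSF13 and at codon 130 of 285 in TNFSF13B, in the stalk between the membrane and the receptor-binding part. In FURIN they begin at codon 104 of 794, at the end of the propeptide that furin removes from itself. In TNFRSF12A they begin at codon 103 of 129, in the intracellular tail, and the match there is one of letters alone. The motif is common: 5138 of 19502 protein-coding genes hold it (26.3%), and among the 9965 of these that have a row here, 2752 do (27.6%).

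The values are log2 expression per gene, scaled between libraries by the authors with TMM factors (trimmed mean of M values). Their decimals allowed whole reads to be recovered for 10741 of the 11530 genes (93.2%), the 4 genes among them. Those reads summed to between 727544 and 4287506 per library, a range of 5.89-fold. APRIL column 3 was the shallowest library and had the lowest TMM factor, 0.875 against 1.00 to 1.03 in the other 7. Of 12 monocyte markers 11 had a row, CD14, LYZ, CSF1R, SPI1 and MPO among them, and CD68 had none. CSF1R had only 5 to 39 reads per library. Of 10 B and plasma cell markers 7 had a row, without MS4A1, JCHAIN and SDC1. Of 8 T and NK cell markers 2 had a row, and of 8 stromal and epithelial markers 0. With limma, 0 of 11257 genes passed an adjusted p of 0.05 (0% called), and the smallest adjusted p was 0.400. Without adjustment 1344 genes (11.9%) had a p under 0.05, 704 higher with APRIL (6.25%) and 640 lower (5.69%). In bulk RNA, fewer cells that express a gene and less of its RNA per cell cannot be told apart.

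The deposited values carry a constant of their own for each gene, so levels were compared between genes only as recovered reads per kilobase of the longest transcript, per 1e+06 recovered reads on the deposited library scale. On this scale FURIN was the most abundant of the 4, at 33.1 ± 2.23 with APRIL and 30.1 ± 5.08 in controls (mean ± SD, n = 4 each). TNFRSF12A stood at 13.8 ± 7.40 and 8.07 ± 1.79, TNFSF13B at 10.2 ± 1.94 and 8.23 ± 1.32, and TNFSF13 at 8.45 ± 1.58 and 7.11 ± 1.32. Over the 8 libraries FURIN ran from 23.0 to 35.1, mostly above the others: the highest TNFRSF12A value, 24.4 in APRIL column 3, exceeded the lowest FURIN value. The other 3 genes overlapped, from 5.45 to 10.7 for TNFSF13, 6.89 to 12.9 for TNFSF13B and 6.78 to 24.4 for TNFRSF12A, so no order among them held beyond their spread.

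TNFSF13, the gene of the ligand that was added, had slightly higher mean RNA with APRIL, and the difference was within the spread between libraries. Its log2 values in APRIL columns 1 to 4 were 2.20, 2.02, 2.55 and 1.94, against 1.58, 2.17, 1.86 and 2.14 in control columns 1 to 4. APRIL columns 1 and 3 lay above the highest control, and the other APRIL columns lay inside the control range. The means were 2.18 ± 0.27 and 1.94 ± 0.28 (SD, n = 4 each), a difference of 0.24 on the log2 scale (SE 0.21, 95% interval -0.21 to 0.70). This is 1.18-fold with an interval of 0.862 to 1.63 and a limma adjusted p of 0.530, and the exact two-sided permutation p over the 70 relabelings was 0.286. The smallest p those relabelings allow is 0.0286. The recombinant protein itself gives no RNA, so these reads are the cells' own transcript.

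TNFSF13 rested on few reads. It had 43, 72, 16 and 40 reads in the APRIL libraries, in column order, and 20, 20, 22 and 43 in the controls. Read counting alone gives an SD of 0.25 log2 units for the APRIL group and 0.29 for the controls, about the observed SDs. The sum of its reads over the sum of each group's library sizes gave a ratio of 1.10. Of its 2276 exon bases, 1263 (55.5%) are also exon of the read-through gene TNFSF12-TNFSF13 on chromosome 17, so its reads cannot be assigned to APRIL messages alone. Without APRIL column 3 the difference was 0.12. Leaving out control column 1 gave 0.13, and leaving out both gave 0.00013.

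TNFSF13B, the gene of BAFF, also had a higher mean with APRIL by less than its error allows to call. Its log2 values in APRIL columns 1 to 4 were 2.07, 1.88, 2.41 and 1.80, against 1.83, 1.51, 2.02 and 1.61 in control columns 1 to 4. APRIL columns 1 and 3 lay above all controls, and the groups overlapped. The means were 2.04 ± 0.27 and 1.74 ± 0.22 (SD, n = 4 each), and the difference was 0.30 on the log2 scale (SE 0.20, 95% interval -0.15 to 0.74). As a fold this is 1.23 (0.903 to 1.67), with a limma adjusted p of 0.458 and an exact permutation p of 0.143. The reads were 62, 103, 23 and 57 with APRIL and 38, 20, 39 and 47 in controls, and the ratio of the groups' summed reads was 1.15. Read counting alone gives SDs of 0.21 and 0.25 log2 units for the APRIL and control groups, about the observed SDs. Without APRIL column 3 the difference was 0.17. TNFSF13B shares no exon base with another annotated gene.

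TNFRSF12A, the gene of the TWEAK receptor Fn14, had the largest mean difference of the 4, and 1 library carried much of it. Its log2 values in APRIL columns 1 to 4 were 0.27, 0.23, 1.75 and 0.88, against -0.089, -0.031, 0.13 and 0.54 in control columns 1 to 4. APRIL columns 3 and 4 lay above the highest control, columns 1 and 2 lay between the controls, and column 3 stood 0.87 above the next library. The means were 0.78 ± 0.71 and 0.14 ± 0.29 (SD, n = 4 each), a difference of 0.64 on the log2 scale (SE 0.34, 95% interval -0.11 to 1.40). The fold was 1.56 (0.925 to 2.64), the limma adjusted p was 0.400 and the exact permutation p was 0.143. Among all tested genes 5.08% had a larger absolute difference and 21.8% a smaller p.

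The high APRIL column 3 value of TNFRSF12A came from 28 reads in the shallowest library. In column order the APRIL libraries held 34, 63, 28 and 58 reads and the controls 19, 13, 20 and 43. Summed over libraries the ratio was 1.30. Read counting alone gives an SD of 0.22 log2 units for the APRIL group, below the observed 0.71. For the controls it gives 0.32, against an observed 0.29. Without APRIL column 3 the difference was 0.32, with limma's library quality weights, which gave that library a weight of 0.117, it was 0.11, and with voom on the recovered reads it was 0.42. CLDN6 on the opposite strand of chromosome 16 shares 40 of its 1848 exon bases (2.16%). The kit does not mark strand, and CLDN6 has no row in the table.

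FURIN, the protease, had the smallest mean difference of the 4 over all 8 libraries. Its log2 values in APRIL columns 1 to 4 were 5.75, 5.71, 5.57 and 5.79, against 5.18, 5.75, 5.56 and 5.71 in control columns 1 to 4. Only APRIL column 4 exceeded the highest control, and control column 1 lay 0.38 below the next library. The means were 5.70 ± 0.10 and 5.55 ± 0.26 (SD, n = 4 each), and the difference of 0.15 on the log2 scale had an SE of 0.15 and a 95% interval of -0.19 to 0.49. The fold was 1.11 (0.878 to 1.40), with a limma adjusted p of 0.595 and an exact permutation p of 0.400. With 89 to 627 reads per library, FURIN was the best counted of the 4, and counting alone gives an SD of 0.10 in each group. The 4 APRIL libraries were spread by that much, and the controls by more. Without control column 1 the difference was 0.026. Without APRIL column 3 it was 0.20, above those of TNFSF13 (0.12) and TNFSF13B (0.17). The ratio of the groups' summed reads by depth was 1.12 for FURIN and 1.10 for TNFSF13. FURIN on chromosome 15 shares no exon base with another gene.

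**Figure D1:**
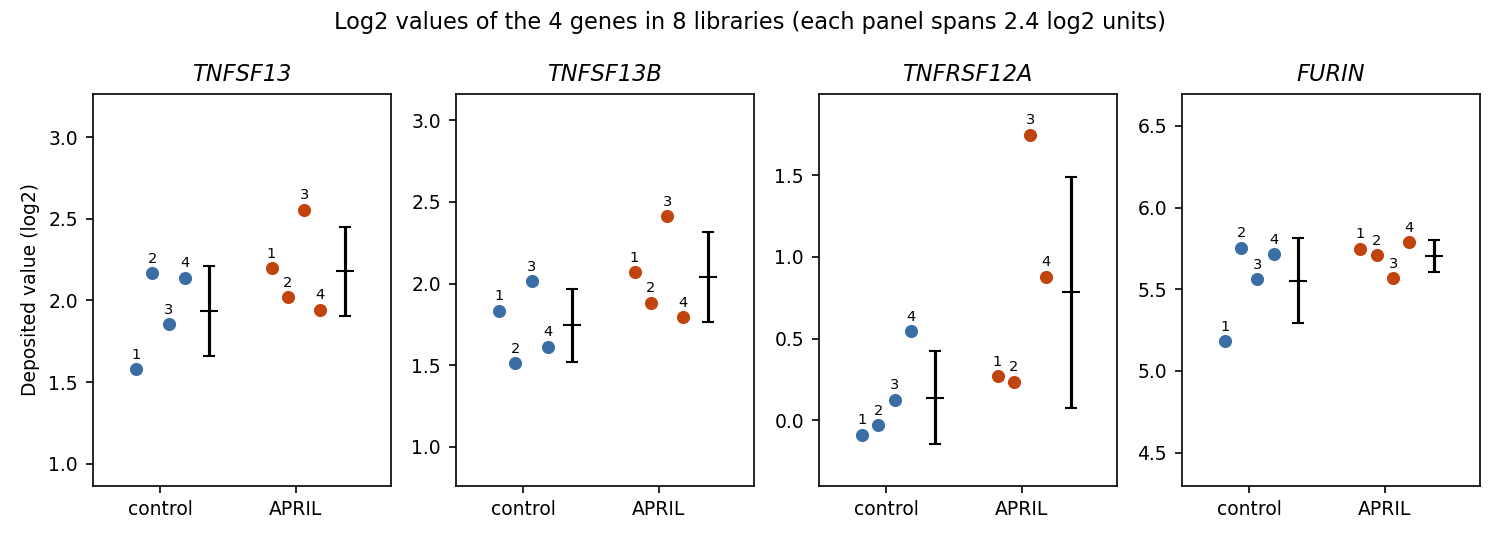
Log2 values of TNFSF13, TNFSF13B, TNFRSF12A and FURIN in each of the 4 APRIL and 4 control libraries, with the mean and SD of each group. The groups overlap for every gene, APRIL column 3 is the highest library for both ligands and for TNFRSF12A, and control column 1 is the lowest for TNFSF13, TNFRSF12A and FURIN.

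All 4 mean differences were positive, as were those of 49.3% of all tested genes, and in 0 of the 4 genes were the groups apart without overlap, against 7.81% of all tested genes. In the authors' deposited table the folds are 1.18, 1.23, 1.56 and 1.11 for TNFSF13, TNFSF13B, TNFRSF12A and FURIN, with unadjusted p-values of 0.255, 0.146, 0.142 and 0.322.

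Whether one gene differed more than another was tested on the difference of their log2 values within each library. TNFRSF12A minus FURIN was higher with APRIL by 0.49, TNFSF13 minus TNFRSF12A was lower by 0.40 (-0.40), and TNFSF13B minus TNFRSF12A was lower by 0.35 (-0.35). Each of these 3 had an exact permutation p of 0.286 and an adjusted p of 0.571 over the 6 pairs. The remaining pairs had differences of -0.05 for TNFSF13 minus TNFSF13B, 0.09 for TNFSF13 minus FURIN and 0.15 for TNFSF13B minus FURIN, each with an adjusted permutation p of 0.800. Without APRIL column 3 the first 3 were 0.13, -0.20 and -0.15, and the last of these was -0.53 without APRIL column 1 and -0.53 without control column 4. No pair was told apart at this depth.

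How the genes varied together differed with and without APRIL column 3. The Pearson r, given as a description over 8 libraries that share depth and base composition effects, was 0.71 for TNFSF13 with TNFRSF12A, 0.63 for TNFSF13B with TNFRSF12A and 0.42 for the pair of ligands. Without APRIL column 3 these were 0.28, -0.037 and -0.24. TNFSF13 with FURIN went the other way, from 0.54 to 0.88, as did TNFRSF12A with FURIN, from 0.19 to 0.58. TNFSF13B with FURIN was -0.21 with that library and -0.17 without it.

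**Figure D2:**
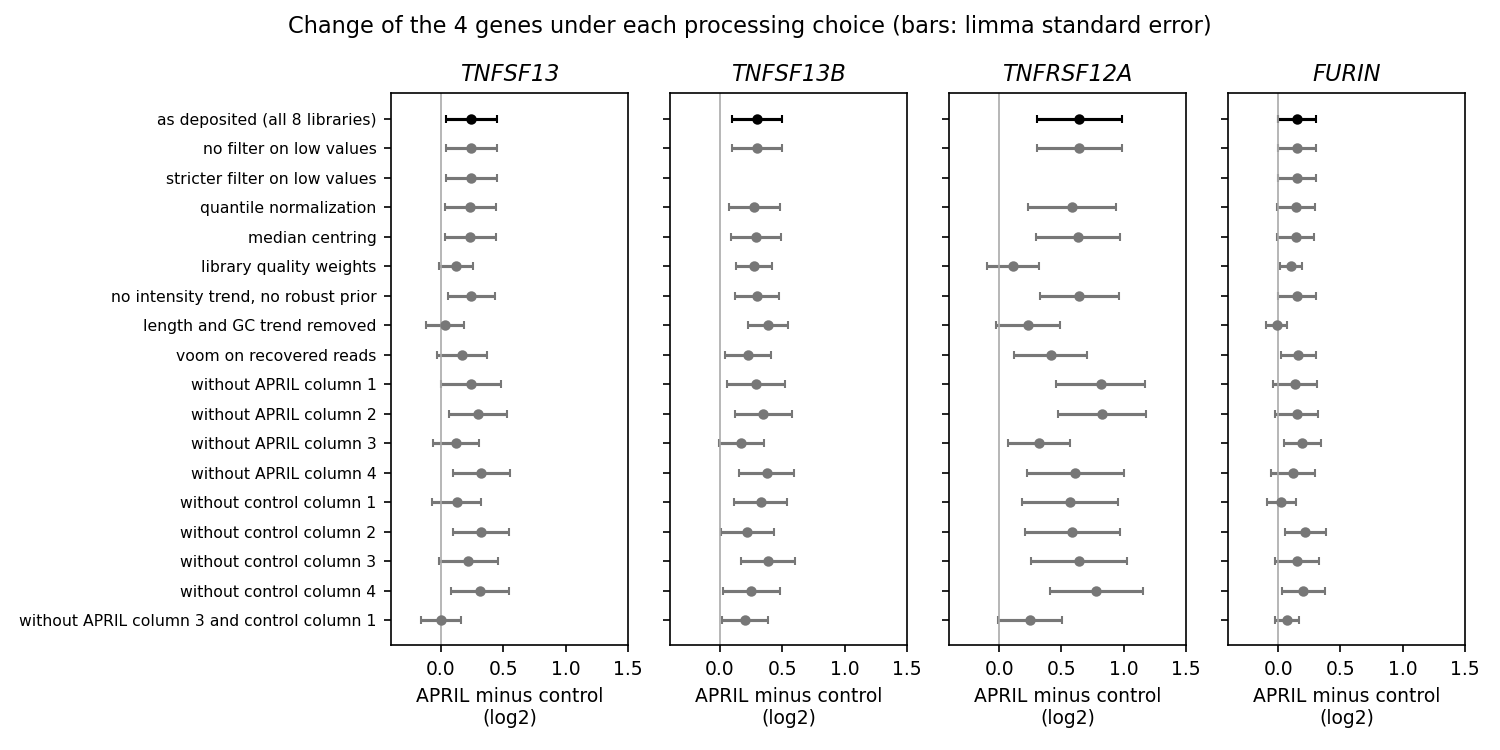
Difference APRIL minus control on the log2 scale for each of the 4 genes, with limma's standard error, from the deposited values and under each alternative processing or set of libraries. TNFSF13 falls from 0.24 to 0.00013 without APRIL column 3 and control column 1, TNFRSF12A from 0.64 to 0.11 with quality weights, and FURIN reaches -0.012 once trends with length and GC content are taken out.

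Over the whole table the difference between groups varied with transcript length and base composition. Among 10359 tested genes with both properties (92.0%), the difference was lower for longer transcripts (Spearman's rho = -0.54) and higher for GC-richer ones (rho = 0.51), across genes that are not independent replicates. TNFRSF12A has a longest transcript of 1678 bases with 64.2% GC, so 12.7% of these genes are shorter and 95.7% have less GC. TNFSF13 has 2195 bases and 57.6% GC, with 22.4% of genes shorter and 79.5% lower in GC. FURIN has 4345 bases and 61.7% GC, a length above 61.4% of genes and a GC content above 91.1%. TNFSF13B has 2614 bases and 36.8% GC, longer than 30.7% of genes and richer in GC than 4.67%.

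With each library's trend in length and GC removed, the difference became 0.031 for TNFSF13, 0.23 for TNFRSF12A and -0.012 for FURIN. That of TNFSF13B, the GC-poor gene of the 4, became 0.39, with an unadjusted limma p of 0.0354 and an adjusted p of 0.572. None of the 4 passed the adjusted threshold under any alternative computed.

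**Figure D3:**
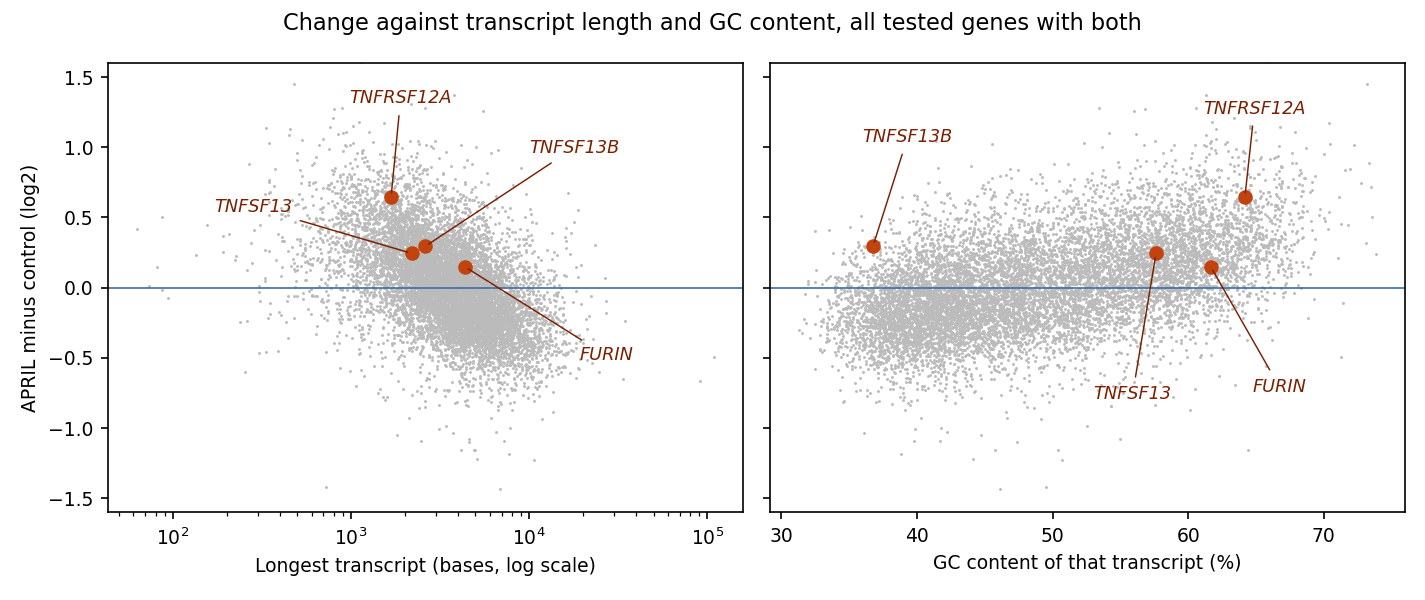
Difference APRIL minus control on the log2 scale against the longest transcript (left, bases, log axis) and its GC content (right, percent) for 10359 tested genes in grey, 6 of them beyond the vertical axis, with the 4 genes in colour. TNFRSF12A, TNFSF13 and FURIN lie on the GC-rich side, TNFSF13B lies at 36.8% GC, and the shorter transcripts lie higher.

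On the receptor side of TWEAK, CD163 had a lower mean with APRIL, opposite in sign to TNFRSF12A. Its log2 values in APRIL columns 1 to 4 were 8.35, 8.12, 7.19 and 7.94, against 8.33, 8.57, 8.17 and 8.34 in control columns 1 to 4. APRIL columns 2, 3 and 4 lay below the lowest control, and column 1 lay inside their range. The difference was -0.45 (SE 0.23, limma adjusted p 0.400), it rested on 15 reads in APRIL column 3, and it was -0.22 without that library.

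The proteoglycans bind the heparin-binding stretch of APRIL at the cell surface. Among the 4 with a row, 2 had positive and 2 negative differences, with a median of 0.058 against -0.0053 for all tested genes, and 0 passed the adjusted threshold. GPC1, glypican 1, had the smallest p of the 4, with a difference of 0.64 (SE 0.20, unadjusted limma p 0.00959, adjusted p 0.400). Its group means were 5.58 ± 0.29 and 4.94 ± 0.32 (SD, n = 4 each), and 3 of 4 APRIL libraries lay above all controls. With length and GC trends removed the difference was 0.32. The syndecans SDC2 and SDC4 differed by 0.15 (SE 0.18) and -0.05 (SE 0.15), and by -0.014 and -0.14 without APRIL column 3.

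Of 14 other TNF family ligands searched 6 had a row, and 0 passed the adjusted threshold. TNFSF9, the ligand of 4-1BB, had the largest difference, 0.74 (SE 0.28, unadjusted limma p 0.0257), and all 4 APRIL libraries lay above all controls. Among all tested genes 7.81% had groups without overlap in one direction or the other, and 11.9% had an unadjusted limma p under 0.05. CD70, the ligand of CD27, differed by 0.58 (SE 0.24, unadjusted limma p 0.0366). TNFSF4, the ligand of OX40, differed by -0.39 (SE 0.19), by -0.25 without control column 1 and by -0.11 with quality weights. It had 4 to 30 reads per library. Read counting alone gives SDs of 0.44 and 0.40 for its APRIL and control groups, above the observed 0.28 in each. The median of the 6 was 0.12, and 0.038 without APRIL column 3. TNFSF9 differed by 0.45 and CD70 by 0.37 without that library, and by 0.49 and 0.15 with length and GC trends removed. Of 25 other TNF receptors 7 had a row, 5 with positive and 2 with negative differences and 0 past the adjusted threshold. RELT differed by 0.26 (SE 0.15), LTBR, the lymphotoxin beta receptor, by 0.20 (SE 0.13) and TNFRSF10D, a decoy receptor of TRAIL, by -0.21 (SE 0.15). RELT differed by 0.15 without control column 1, and TNFRSF10D by -0.095 without APRIL column 3.

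Receptors of this branch signal through TRAF adaptors to the kinase NIK and the noncanonical NF-kB pathway, and 9 of 11 genes of that relay had a row. Of these 5 had positive and 4 negative differences, with a median of 0.050, and 0 passed the adjusted threshold. TRAF2, the adaptor that Fn14 and BCMA recruit, differed by 0.35 (SE 0.16, unadjusted limma p 0.0462), and TRAF6 by 0.35 (SE 0.14, unadjusted limma p 0.0368). CHUK, the kinase IKK alpha, differed by -0.27 (SE 0.14), and by -0.16 without control column 1. With length and GC trends removed TRAF2 differed by 0.068, TRAF6 by 0.51 and CHUK by -0.053, and the median of the 9 was -0.026.

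FURIN is one of 3 proprotein convertases with a row in the table. PCSK7, a convertase of the same secretory route, differed by 0.15 (SE 0.15), as much as FURIN, and by 0.077 to 0.24 with 1 library left out. MBTPS1, the site-1 protease that cuts SREBP precursors, differed by 0.041 (SE 0.12). With length and GC trends removed PCSK7 differed by 0.42 (SE 0.14) and FURIN by -0.012 (SE 0.082). For PCSK7, with a longest transcript of 9347 bases, the removal moved APRIL column 3 from 6.06 to 6.60, its highest library.

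Genes that carry furin between compartments or inhibit it showed no shared direction. Of 11 tested 5 had positive and 6 negative differences, with a median of -0.038, and 0 passed the adjusted threshold. AP1S1, a subunit of the AP-1 adaptor that sorts furin, differed by 0.53 (SE 0.26), and by 0.27 without APRIL column 3. SERPINB8 and GBP2, both inhibitors of furin, differed by -0.25 (SE 0.15) and -0.32 (SE 0.22), and by -0.17 and -0.19 without APRIL column 3. GBP2 rested on 3 to 38 reads per library, where SERPINB8 had 50 to 458. The ratio of the groups' summed reads by depth was 0.902 for GBP2 and 0.884 for SERPINB8.

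Of 28 genes whose products furin is known to cut 19 were tested, 13 with negative and 6 with positive differences. Their median was -0.24 against -0.0053 for all tested genes, and 0 passed the adjusted threshold. Without APRIL column 3 the median was -0.046, and with length and GC trends removed it was -0.060. ADAM10, a sheddase, differed by -0.36 (SE 0.14, unadjusted limma p 0.0234) and by 0.024 once length and GC trends were removed. SORT1, sortilin, differed by -0.31 (SE 0.14) by -0.20 without APRIL column 3 and by -0.10 with trends removed. ADAM17, which sheds TNF, differed by -0.45 (SE 0.22), and by -0.22 without APRIL column 3.

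**Figure D4:**
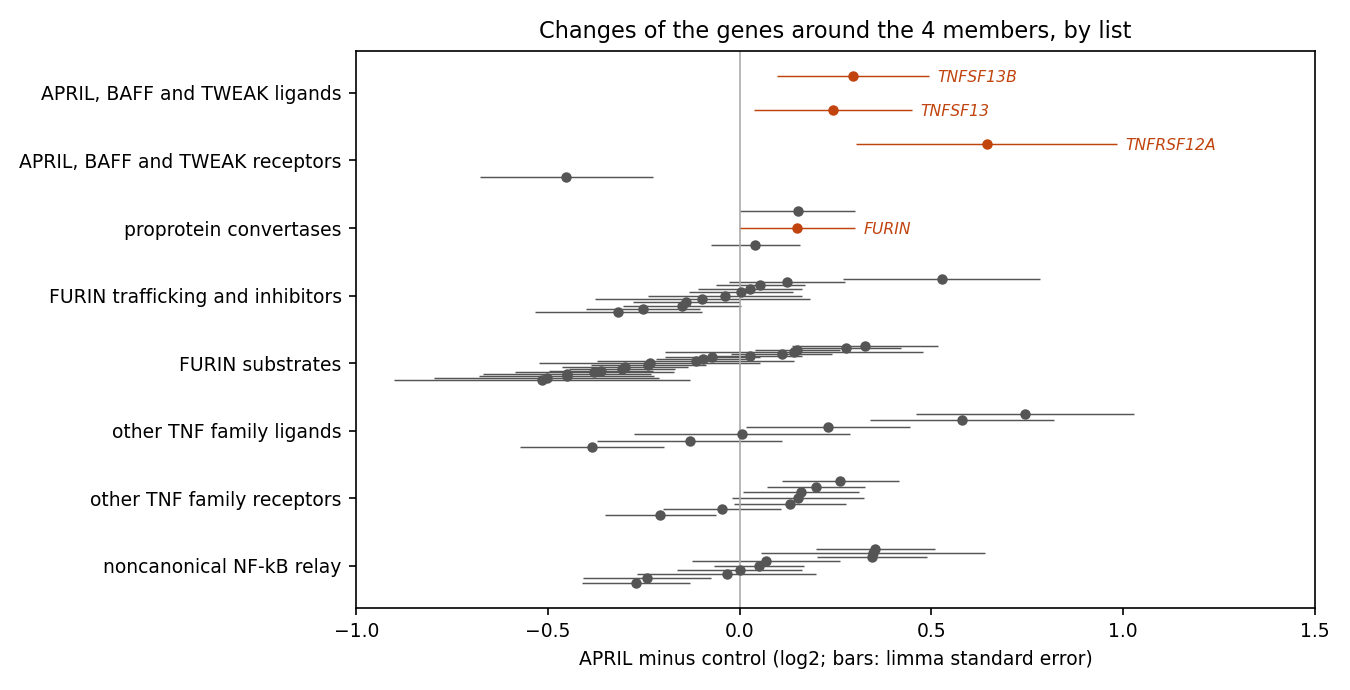
Difference APRIL minus control on the log2 scale, with limma's standard error, for every tested gene of 8 lists, the 4 genes in colour. The differences of the furin substrates run from -0.52 to 0.33, those of the other TNF family ligands from -0.39 to 0.74, and no gene passed the adjusted threshold.

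The genes next to the 4 on their chromosomes were also read. Of 12 neighbours 8 had a row and 7 were tested, 6 with positive differences and a median of 0.32, and 0 passed the adjusted threshold. The median was 0.14 without APRIL column 3 and 0.10 with length and GC trends removed. FES, a kinase of myeloid cells beside FURIN, differed by 0.37 (SE 0.14, unadjusted limma p 0.0274), and BLM, a helicase on the other side of FURIN, by -0.079 (SE 0.18). Near TNFSF13, SENP3 differed by 0.32 (SE 0.23) and EIF4A1 by 0.19 (SE 0.18). Without control column 2 these were 0.13 and 0.063, SENP3 was 0.16 without APRIL column 3, and EIF4A1 was 0.33 without control column 3. Near TNFRSF12A, THOC6 differed by 0.40 (SE 0.32) and PKMYT1 by 0.46 (SE 0.22), while HCFC1R1 was below the floor and untested. HCFC1R1 had 128 reads summed over the APRIL libraries and 74 over the controls, more than the 66 and 58 of the tested TNFSF4. THOC6 differed by 0.038 without APRIL column 3, and PKMYT1 by 0.26 without control column 1. ABHD13, near TNFSF13B, differed by 0.0077 (SE 0.13).

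The tested genes whose log2 values over the 8 libraries were most like each member were named by Pearson r, as a description of libraries that share depth and composition. For TNFSF13 they were SOWAHD (r = 0.98), PSRC1 (0.97) and ABHD15 (0.97). For TNFSF13B they were CDC37L1 (0.97), CENPP (0.96) and ATF7IP2 (0.96). For TNFRSF12A they were SERTAD1 (0.99), HOXA11-AS (0.99), an antisense RNA that unstranded reads cannot separate from its partner, and ETHE1 (0.99). For FURIN they were LONP1, KIFC1 and MOGS (each 0.99). An r above 0.9 was reached by 818 genes with TNFRSF12A (7.27%), 217 with FURIN (1.93%), 126 with TNFSF13 (1.12%) and 52 with TNFSF13B (0.462%).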

How the data were processed

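Per the labels' protocols, the library kit was Illumina's TruSeq RNA v2. Per the submitters' processing notes, bcl2fastq and TopHat2 2.0.13 were used with the build hg19. Read counter and annotation: not given in the sources used here. Per the file headers, the authors deposited log2 values scaled by TMM. Each gene's p-value and linear fold (a ratio) as the authors deposited them are used only where named.

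Columns carry their group and no replicate number, so libraries are named by place. All 8 columns of values were used. The floors and limma's intensity trend use these values, whose constant per gene keeps them from ranking genes by abundance. Genes were tested with limma 3.58.1 in R 4.3.3 (intensity trend, robust prior, group as the only term, two-sided, Benjamini-Hochberg over 11257 genes, threshold 0.05). The exact permutation test, plots and sequences used Python 3.11.15 with scipy 1.17.1. Tested on simulated data for 11257 genes, the fit recovered 61% of the changes by 1 log2 unit and 93% of the changes by 2, with 4.35% of calls false. The simulated noise was independent between genes and equally spread in all libraries. It held no differences in library quality and no length or GC trends, so these shares need not hold for the real libraries.

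Whole reads were sought as log2(reads + 0.5) plus a constant per gene and per library. With moved constants 0 of 500 genes were resolved. The reads served for depth, levels per kilobase and voom. Counting SDs cover counting error only. Lengths and GC content are those of the longest GENCODE 29 transcript, matched by symbol. No genome coordinates are printed, since the annotation's build is not that of the files.

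The 4 genes and the 14 gene lists were chosen with earlier results of these data known. Named genes are the 4, all table members of the lists of APRIL, BAFF and TWEAK ligands and receptors, of convertases and of neighbours, and the 3 with the smallest p of each other list that is not a marker list. To these come the 3 most correlated named genes per member and the markers that check the cell type, while 11 symbols turned into dates were tested unnamed. Alternatives changed the filter, scaling, weights, variance model, length and GC trend, unit and set of libraries.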

Additional observations from a re-analysis of the deposited data

Results flagged for a closer look

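In 8 of 108 groups of 4 libraries, those of the genes and cell type markers given in the text, 1 library stood apart by Dixon's criterion, and chance flags about 1 in 20 groups. None of the 8 was a group of TNFSF13, TNFSF13B, TNFRSF12A or FURIN. APRIL column 3 was that library in 4 of them: the highest of the APRIL group for TNFSF9 (log2 value 2.26), SDC2 (6.24) and THOC6 (4.53), and the lowest for KIFC1 (5.30). APRIL column 4 was the highest for CD79A (2.28). In the controls, column 3 was the highest for TNFSF9 (0.88), and column 1 was the highest for ADAM17 (6.88) and the lowest for MPO (8.05).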

How the results depend on the processing

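No paired analysis was possible because the columns carry a group and no replicate number. None of the 4 genes passed the adjusted threshold under its 17 or 18 alternatives, among which the reads summed per group gave a difference and no p-value. The limma adjusted p ran from 0.451 to 1.00 for TNFSF13, 0.342 to 0.760 for TNFSF13B, 0.245 to 0.794 for TNFRSF12A and 0.530 to 0.952 for FURIN, over n = 8 libraries or fewer. FURIN was the only one of the 4 to turn sign, to -0.012 with length and GC trends removed. TNFSF13B and TNFRSF12A fall under the stricter floor and have no value there. Leaving out 1 library at a time gave 0.12 to 0.32 for TNFSF13, 0.17 to 0.39 for TNFSF13B, 0.32 to 0.83 for TNFRSF12A and 0.026 to 0.22 for FURIN. It gave -0.20 to 0.10 for TNFSF13 minus TNFSF13B, -0.076 to 0.20 for TNFSF13 minus FURIN and -0.024 to 0.30 for TNFSF13B minus FURIN. Quality weights called 4 genes, 0 of them named here, where the deposited values called 0. Genes with an unadjusted p under 0.05 numbered 823 with trends removed, 846 without APRIL column 3 and control column 1 (an alternative added after seeing the data), and 507 to 2247 without 1 library, against 1344. Of 672 alternatives for 40 other named genes 23 turned the sign, in 12 genes, and 0 passed the adjusted threshold. With trends removed these were ADAM10 (0.024), BLM (0.12), KIFC1 (-0.066), LONP1 (-0.085), MOGS (-0.019) and PSRC1 (-0.024). With quality weights they were BLM (0.12) and THOC6 (-0.042). Without both libraries they were ABHD15 (-0.072), BLM (0.16), PSRC1 (-0.053), SDC2 (-0.018) and THOC6 (-0.067). ABHD13 turned to -0.00044 with quantile normalization and -0.0016 with median centring. Without 1 library the ranges were -0.054 to 0.059 for ABHD13, -0.17 to 0.047 for BLM, -0.00064 to 0.25 for LONP1, -0.00074 to 0.089 for MBTPS1, -0.014 to 0.22 for SDC2 and -0.14 to 0.038 for SDC4. The cause of each was not tested. Depth limits TNFSF13, TNFSF13B and TNFRSF12A, at 16 to 72, 20 to 103 and 13 to 63 reads per library. For TNFRSF12A with APRIL the observed SD of 0.71 was above the 0.22 that counting alone gives.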

Other observations

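Genes used as markers of B cells, the cells in which APRIL and BAFF are best known to act, had rows in this monocytic line. PAX5 had 444 reads summed over the APRIL libraries and 295 over the controls, a ratio of 1.02 once divided by the groups' summed depth, and its log2 difference was -0.14 (SE 0.24). CD79B had 211 and 153 reads, a ratio of 0.933 by depth, and its log2 difference was 0.024 (SE 0.19). Of the 7 tested B and plasma cell markers 0 passed the adjusted threshold. CD79A, a subunit of the B cell receptor, had all 4 APRIL libraries above all controls, as had 7.81% of all tested genes in one direction or the other. Its difference was 0.26 (SE 0.17), with a limma p of 0.164, an adjusted p of 0.456 and an exact permutation p of 0.0286, the smallest possible. APRIL column 4 stood at 2.28 against 1.81 to 1.88 in the other APRIL libraries, and without it the difference was 0.15. With length and GC trends removed the difference was -0.13. CD38 differed by -0.46 (SE 0.26), with 2 reads in APRIL column 3 and log2 values near the floor, from -0.69 to 0.65. It had 60 reads summed over the APRIL libraries and 49 over the controls, a ratio of 0.828 by depth. CD79A and CD38 were singled out after their values were seen.

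The difference of TNFSF13 and TNFSF13B within a library was nearly constant in the APRIL group, at 0.13, 0.14, 0.14 and 0.15 in columns 1 to 4, an SD of 0.0073. Read counting alone gives an SD of 0.33 for it at these depths. In the controls it was -0.26, 0.65, -0.16 and 0.53, an SD of 0.46 where counting gives 0.39. This was noticed after the values were seen and was not tested.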
